A study of Mus musculus with 11 samples.

Results

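The 10 genes described here are the receptors Notch1, Notch2, Notch3 and Notch4, the ligands Dll1, Dll4, Jag1 and Jag2, and the target genes Hey1 and Hes1. They were taken by exact gene symbol from the 31053 genes counted in each library, and all 10 were found. Droplet-based 3′ single-cell RNA sequencing of dissociated lung cells from aged mice gave 11 libraries. Groups are named by genotype and libraries by group and number, as in p21mTert_1. WT (1 library) is wild type (+/+). p21Het (3 libraries) is heterozygous for p21 (+/-), the gene Cdkn1a. p21mTert (5 libraries) carries mTert, the mouse telomerase reverse transcriptase gene, at 1 allele of p21 (+/mTert). p21mTertCD (2 libraries) carries the allele mTertCD (+/mTertCD), which the labels do not spell out. The altered p21 allele is thus present in every library but WT, and the series title places the induction of mTert in p21-positive cells. Age labels give 18 months, apart from p21Het_1 at 19 months and p21mTert_1 at 20 months, for which the titles give 18 months. The labels do not say whether libraries of 1 group came from separate animals, so p-values measure the spread between libraries.

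Notch receptors are cut by proteases when a ligand of the Delta or Jagged family on a neighbouring cell binds them. The freed intracellular domain joins the DNA-binding protein Rbpj and switches on target genes, among them those of the Hes and Hey repressors. In blood vessels the pathway is known for arterial identity and for the choice between sprouting and non-sprouting endothelial cells. It also acts in smooth muscle and pericytes through Notch3 and in the choice between secretory and ciliated cells of the airway.

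All 10 genes are protein-coding in GENCODE M21 (GRCm38), and a UMI, a unique molecular identifier that marks 1 captured RNA molecule, was counted per gene, not per exon. Notch1 (ENSMUSG00000026923) lies at chr2:26457903-26516663 on the minus strand and Notch2 (ENSMUSG00000027878) at chr3:98013527-98150361 on the plus strand. Notch3 (ENSMUSG00000038146) lies at chr17:32120820-32166852 on the minus strand and Notch4 (ENSMUSG00000015468) at chr17:34564268-34588503 on the plus strand. Among the ligands, Dll1 (ENSMUSG00000014773) lies at chr17:15367354-15376872 on the minus strand and Dll4 (ENSMUSG00000027314) at chr2:119325784-119335962 on the plus strand. Jag1 (ENSMUSG00000027276) lies at chr2:137081456-137116644 and Jag2 (ENSMUSG00000002799) at chr12:112907819-112929776, both on the minus strand. The targets Hey1 (ENSMUSG00000040289, minus strand) and Hes1 (ENSMUSG00000022528, plus strand) lie at chr3:8663359-8667256 and chr16:30064384-30067796. Whether counting used the strand is not given in the sources used here. The gene A930024N18Rik overlaps Dll1 on the opposite strand and held 116 UMIs against 3916 for Dll1, and Gm17276 overlaps Notch3 on the opposite strand and held 34 against 1235.

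Promoter sequence was read from RefSeq (GRCm38.p6), where 8 of the 10 symbols matched with 9 start sites. Hes1 and Hey1 were not matched. Windows of 250 bases before each start were searched on both strands for TGGGAA, the core of the Rbpj site, CACGTG, the E-box, and CACGCG, a site known for Hes and Hey proteins. TGGGAA and CACGTG were in 0 of the 9 windows, against 21.6% and 6.0% of 32851 windows of the same length. CACGCG was in 4 of the 9 windows, those of Notch2, Dll1, Dll4 and Jag1, against 7.6% of all windows. The 9 windows were 56.0% to 87.2% G and C, against a median of 52.4% over all windows, and the part of this in the motif counts was not tested. CACGTG and CACGCG begin alike but cannot lie at the same place, and a match describes letters, not a binding site. Shown are the windows of the ligands Dll4 (chr2:119325534-119325783, plus strand) and Dll1 (chr17:15376933-15377182, minus strand), whose levels set the endothelial classes apart below, and of Notch3 (chr17:32166891-32167140, minus strand), which was high in mural cells and holds no match. They run 5′ to 3′ toward the start site, with CACGCG in capitals.
Dll4: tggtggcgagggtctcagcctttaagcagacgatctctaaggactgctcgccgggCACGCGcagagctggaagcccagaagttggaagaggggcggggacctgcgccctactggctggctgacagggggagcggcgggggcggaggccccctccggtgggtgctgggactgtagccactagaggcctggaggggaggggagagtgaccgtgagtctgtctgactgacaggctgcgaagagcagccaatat
Dll1: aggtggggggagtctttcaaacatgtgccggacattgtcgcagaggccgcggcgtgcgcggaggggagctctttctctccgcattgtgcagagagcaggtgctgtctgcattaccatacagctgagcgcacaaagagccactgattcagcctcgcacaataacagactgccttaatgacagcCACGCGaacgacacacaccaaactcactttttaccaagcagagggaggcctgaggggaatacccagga
Notch3: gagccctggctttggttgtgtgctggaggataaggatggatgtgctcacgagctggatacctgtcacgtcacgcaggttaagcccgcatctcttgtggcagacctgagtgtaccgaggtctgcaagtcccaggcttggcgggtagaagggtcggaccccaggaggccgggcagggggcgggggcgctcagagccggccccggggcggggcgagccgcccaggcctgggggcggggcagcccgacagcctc

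Of 81983 barcodes, 69267 had 1000 to 30000 UMIs and at most 14% mitochondrial UMIs and were kept. Libraries held 42038434 to 85988955 UMIs. The 3 libraries labelled transcriptomic (WT, p21Het_1 and p21mTert_1) had median mitochondrial shares of 6.30% to 6.58%, and the other 8 of 2.82% to 4.28%. Tert was at 2.00 to 3.28 CPM (counts per 1000000 UMIs) in p21mTert and 1.91 and 2.59 in p21mTertCD, against 0.544 to 0.842 in p21Het and a WT value of 1.13, so the libraries carrying a Tert allele lay above the others. A total of 617 barcode sequences occurred in 2 or more libraries, which leaves 68646 distinct sequences.

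Cells were named "-like" from marker genes that include none of the 10 genes. A lineage needed 3 of 8 markers of that lineage alone, and a class 2 markers and more than any other class. The gates took 6769 endothelial, 4722 epithelial, 1804 mesenchymal and 48595 immune cells. The endothelial classes were gCap-like (general capillary, 2865 cells), aCap-like (aerocyte, the thin gas-exchange capillary cell, 808), arterial-like (953), venous-like (589) and lymphatic-like (280). Arterial-like cells also held gCap-like markers, with a median of 2 of 6 per cell and 2798 CPM summed, against 5407 CPM in gCap-like cells. Gja4, Gja5 and Efnb2 among the arterial markers are themselves known Notch targets. Pericyte-like cells numbered 31 and stayed under 10 in every library, so no mean is given for them.

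**Figure D1:**
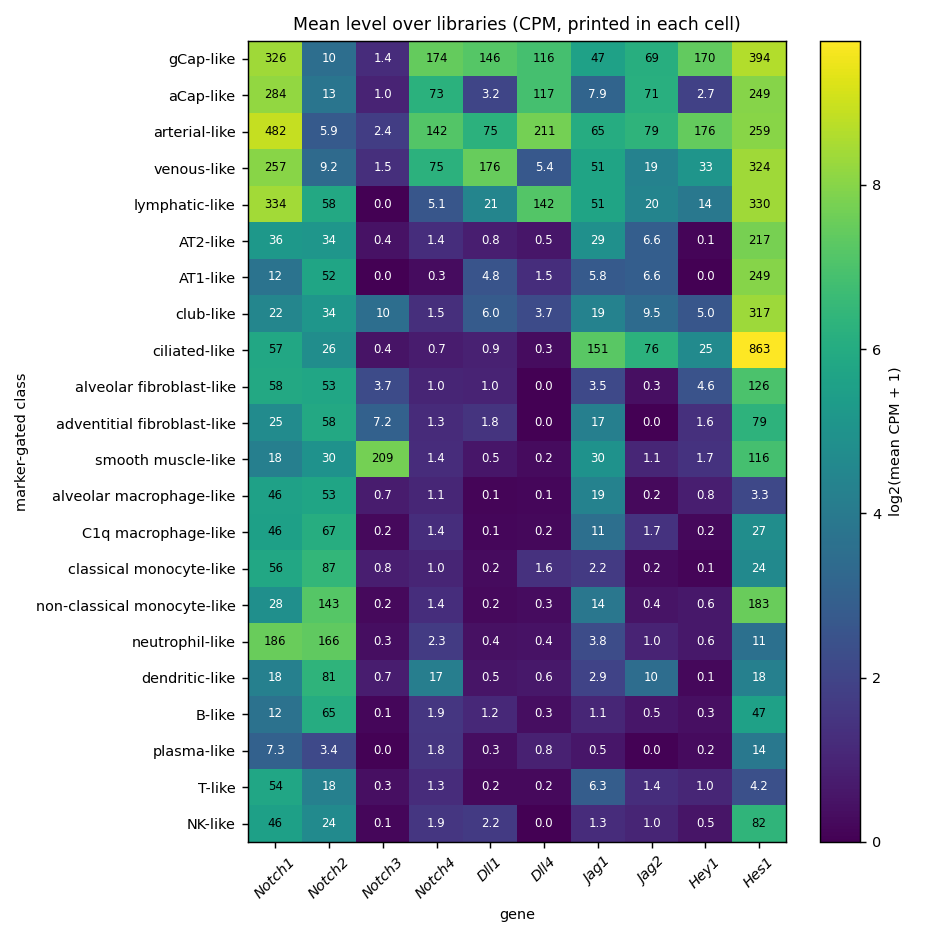
Mean level over libraries (CPM) of the 10 genes (columns) in the 22 classes with enough cells (rows), coloured by log2(mean CPM + 1) with the mean printed in each cell. Endothelial classes hold the highest values of Notch1, Notch4, Dll1, Dll4 and Hey1, smooth muscle-like cells that of Notch3 (209), ciliated-like cells those of Jag1 (151) and Hes1 (863), and neutrophil-like cells that of Notch2 (166).

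Receptors differed in where they were found. Notch1 was highest in arterial-like cells at 482 ± 66.4 CPM (SD, n = 11 libraries) and next in lymphatic-like cells at 334 ± 76.4, gCap-like cells at 326 ± 48.0, aCap-like cells at 284 ± 39.1 and venous-like cells at 257 ± 37.1, neighbours whose ranges overlapped. Outside the endothelium it was highest in neutrophil-like cells at 185.5 ± 35.5 CPM, whose range did not overlap that of the next class, alveolar fibroblast-like cells at 58.2 ± 14.2. The lowest, median and highest libraries held 417, 459 and 600 CPM in arterial-like cells and 282, 312 and 445 in gCap-like cells.

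Notch4, the receptor known from endothelium, was at 174 ± 38.4 CPM in gCap-like cells (lowest 108, median 169.9, highest 256) and at 142 ± 32.9 in arterial-like cells (87.6, 141 and 205). It was lower in venous-like cells at 75.2 ± 20.1 and aCap-like cells at 73.5 ± 21.1, and lymphatic-like cells held 5.05 ± 3.64 (0, 5.65 and 9.93). Every gCap-like library was thus above every aCap-like, venous-like and lymphatic-like one. The next class after aCap-like cells was dendritic-like cells at 16.9 ± 5.86, and these ranges did not overlap.

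Notch2 showed another order, with neutrophil-like cells at 166 ± 21.4 CPM, non-classical monocyte-like cells at 143 ± 16.1 and classical monocyte-like cells at 86.8 ± 12.4. The endothelial blood classes held 5.87 ± 5.25 (arterial-like) to 12.8 ± 15.5 (aCap-like, or 8.21 ± 3.96 without p21Het_3, which held 4 UMIs in 12 cells), while lymphatic-like cells held 57.9 ± 23.6. The ranges of non-classical and classical monocyte-like cells did not overlap.

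Notch3 was a mural gene in these libraries. Smooth muscle-like cells (282 cells) held 209 ± 67.4 CPM, with 91.7 in the lowest, 206 in the median and 357 in the highest library. The next class, club-like cells, held 10.5 ± 10.2 (n = 10), and its range did not overlap. The 31 pericyte-like cells held 162 Notch3 UMIs, which came to 735 to 2595 CPM in the 9 libraries with any such cell.

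Ligands split by vessel type. Dll4, the Delta ligand known for tip cells and arteries, was at 210.6 ± 58.6 CPM in arterial-like cells (lowest 115, median 205, highest 317), 142 ± 39.0 in lymphatic-like cells (104, 132 and 225), 117 ± 35.1 in aCap-like cells (58.1, 106 and 184) and 116 ± 40.5 in gCap-like cells (59.0, 108 and 186). In venous-like cells it was at 5.39 ± 3.20 CPM (0, 5.22 and 10.3), so the venous-like libraries lay below every library of the other 4 classes.

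Dll1, a Delta ligand of the same receptors, took a different order. Venous-like cells held 176 ± 52.9 CPM (lowest 87.6, median 188, highest 280) and gCap-like cells 145.5 ± 29.1 (107, 138 and 195.5). Arterial-like cells held 75.2 ± 21.1 (44.99, 73.0 and 105), lymphatic-like cells 20.97 ± 11.9 (7.37, 18.9 and 39.6) and aCap-like cells 3.16 ± 3.87 (0, 1.38 and 11.2). The ranges of gCap-like and arterial-like cells did not overlap, nor did those of arterial-like and lymphatic-like cells. In the 266 arterial-like cells with at most 1 gCap-like marker Dll1 was at 42.0 ± 27.7 (0 to 91.7), which overlapped lymphatic-like cells. For the level in cells not known for either ligand, T-like cells held 0.176 ± 0.172 CPM of Dll1 and 0.186 ± 0.203 of Dll4.

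Within the UMIs of the 4 ligands together, Dll1 made up 69.0% ± 7.84 (SD, n = 11) in venous-like cells and 1.78% ± 2.28 in aCap-like cells. The share of Dll4 was 2.34% ± 1.72 in venous-like, 30.5% ± 8.48 in gCap-like, 48.2% ± 7.77 in arterial-like, 58.4% ± 11.3 in aCap-like and 62.1% ± 11.5 in lymphatic-like cells. These shares are not corrected for gene length and rest on 3610 ligand UMIs in gCap-like, 2072 in arterial-like, 935 in venous-like, 735 in aCap-like and 478 in lymphatic-like cells.

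Jag1 was highest in ciliated-like cells at 151 ± 21.6 CPM (lowest 116, median 154, highest 190.2), above every library of the next class, arterial-like cells at 64.7 ± 14.8. With other arterial-like gates these ranges overlapped: the arterial-like mean was 119 ± 72.0 (highest library 329) in cells with at most 1 gCap-like marker, 98.2 ± 76.7 (highest 311.5) without Gja4, Gja5 and Efnb2 among the markers and 92.4 ± 63.5 (highest 247) with classes from clusters. The lowest endothelial level was that of aCap-like cells at 7.86 ± 6.95 CPM. Jag2 was at 79.4 ± 15.5 in arterial-like, 76.1 ± 11.8 in ciliated-like, 71.0 ± 22.1 in aCap-like and 68.8 ± 14.3 in gCap-like cells, with overlapping ranges. In arterial-like cells it was at 45.1 ± 26.7 with at most 1 gCap-like marker, 60.5 ± 19.5 (n = 10) without those 3 markers and 47.3 ± 11.6 with clusters, each below the ciliated-like mean. Lymphatic-like cells at 19.9 ± 12.5 and venous-like cells at 18.8 ± 10.3 were below the gCap-like range.

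Of the targets, Hey1, a repressor induced by Notch in arterial endothelium, was at 175.5 ± 49.3 CPM in arterial-like cells (lowest 108, median 176, highest 243) and 169.6 ± 47.6 in gCap-like cells (95.4, 171 and 254). In the 266 arterial-like cells with at most 1 gCap-like marker it was at 97.6 ± 39.8 CPM (n = 11). It was at 32.8 ± 14.6 in venous-like cells (19.4, 31.7 and 71.7), 14.1 ± 13.4 in lymphatic-like cells and 2.69 ± 2.81 in aCap-like cells (0, 2.76 and 8.38). Outside the endothelium the highest level was that of ciliated-like cells at 24.6 ± 5.29 CPM. Hes1, a target in many tissues, was broader: 863 ± 233 CPM in ciliated-like cells, 394 ± 88.1 in gCap-like cells and 317 ± 97.7 (n = 10) in club-like cells. It was at 3.29 ± 1.48 CPM in alveolar macrophage-like cells and 4.16 ± 1.90 in T-like cells, the 2 lowest of the 22 classes.

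**Figure D2:**
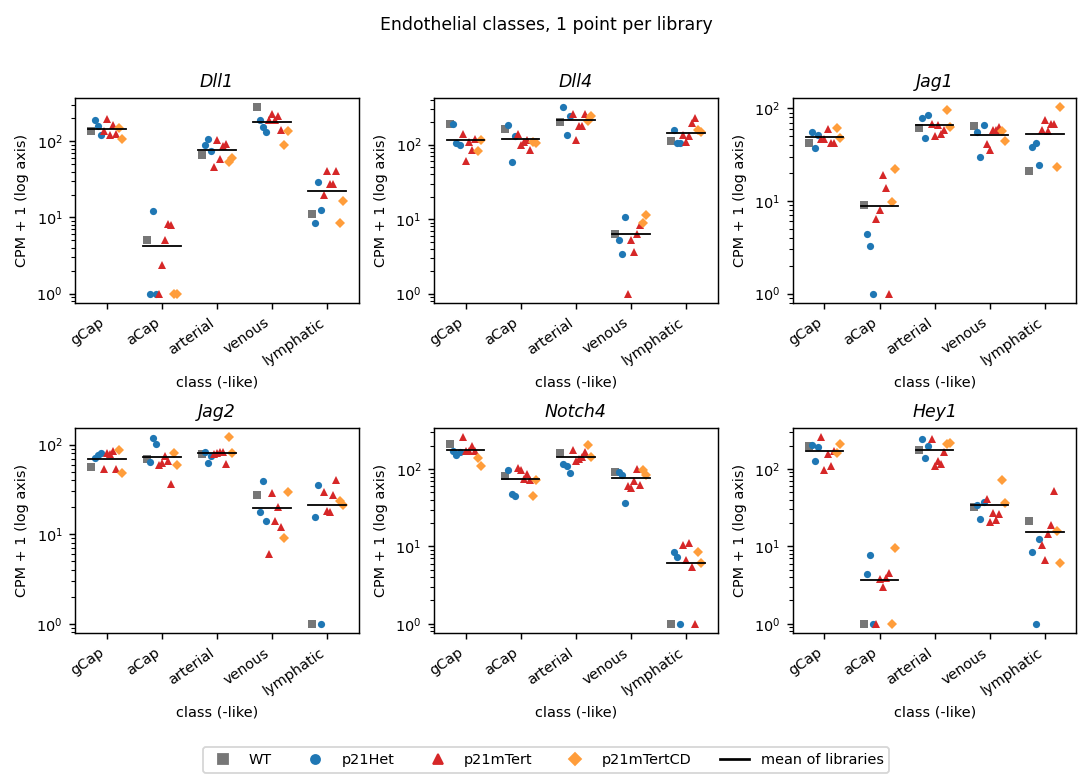
Level (CPM + 1, log axis) of Dll1, Dll4, Jag1, Jag2, Notch4 and Hey1 in the 5 endothelial classes, 1 point per library coloured by genotype, with a line at the mean. Dll4 is lowest in venous-like and Dll1 and Hey1 are lowest in aCap-like cells, where no library exceeds 11.2 and 8.38 CPM.

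Endothelial classes were then compared within libraries. UMIs were summed per library and class and tested with edgeR's quasi-likelihood test, with the library as a block, over all genes that passed its filter on low counts. Values are log2 fold changes with 1 standard error (SE), and a gene is called when its Benjamini-Hochberg adjusted p is under 0.05. A gene that passes the filter only through the class where it is high had to differ, so counts of called genes, and the p-values of genes near 0 in 1 of the classes compared, are descriptions.

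The 2 capillary classes differed in most of the genes, aCap-like cells being lower in every one called. Of 8 genes tested 6 were called, against 55.2% of all 6288 genes tested. Hey1 was lower in aCap-like than in gCap-like cells by -5.47 (SE 0.20) and Dll1 by -5.15 (SE 0.21). Those folds rest on 12 Hey1 and 16 Dll1 UMIs in all aCap-like cells. They are descriptions, given without p-values. The same holds for Jag1 at -2.37 (SE 0.23), which was found in 3.63% ± 3.53 of aCap-like cells. Notch4 differed by -1.18 (SE 0.10, adjusted p = 2.6e-14 by edgeR), Hes1 by -0.69 (SE 0.08, adjusted p = 9.5e-10) and Notch1 by -0.21 (SE 0.07, adjusted p = 0.0144). Dll4 at 0.02 (SE 0.11, adjusted p = 0.884) and Jag2 at -0.03 (SE 0.12, adjusted p = 0.853) were not called. With classes taken from clusters instead of gates, Dll4 came to -0.38 (adjusted p = 0.00541) and Jag2 to -0.34 (adjusted p = 0.00784). In the 3 libraries labelled transcriptomic alone, Notch1 was not called (-0.19, adjusted p = 0.349).

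Arterial-like cells carried more of Dll4, Notch1 and Jag1 and less of Dll1 and Hes1 than gCap-like cells. These were 5 of 8 genes tested, against 33.5% of all 6215. Dll4 was higher by 0.94 (SE 0.09, adjusted p = 1.0e-11), Notch1 by 0.62 (SE 0.06, adjusted p = 1.2e-10) and Jag1 by 0.45 (SE 0.11, adjusted p = 8.7e-04). Dll1 was lower by -0.87 (SE 0.09, adjusted p = 2.5e-10) and Hes1 by -0.55 (SE 0.07, adjusted p = 2.5e-08). Hey1 at 0.12 (adjusted p = 0.248), Jag2 at 0.22 (adjusted p = 0.109) and Notch4 at -0.23 (adjusted p = 0.0533) were not called.

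Hey1, Jag2 and Notch4 changed their call with the gate. Among the 266 arterial-like cells with at most 1 gCap-like marker, Gpihbp1, a capillary marker, was at 45.6 ± 25.4 CPM, against 881.5 ± 154 in the full gate. There, Dll4 at 1.11, Notch1 at 0.81 and Jag1 at 1.30 were higher, and Dll1 at -1.51, Hes1 at -1.16, Hey1 at -0.67, Jag2 at -0.61 and Notch4 at -0.60 were lower, with adjusted p-values by edgeR's test of 5.6e-10 to 0.0325. The share of all genes called in that fit is not given, so these calls are not set against it. Since that gate was chosen after the data were seen, its values stand beside the others and replace none. Without Gja4, Gja5 and Efnb2 among the markers, the 5 called genes kept their direction and were called (Dll4 1.09, Notch1 0.80, Jag1 1.06, Dll1 -1.89 and Hes1 -0.96), Notch4 was called at -0.46 (adjusted p = 0.00324), and Hey1 was at -0.28 (adjusted p = 0.0919). Notch4 was also called with Scrublet doublets removed (-0.24, adjusted p = 0.0423), with UMI totals, which shifted the median of all genes by -0.07 (-0.30, adjusted p = 0.0105), with no filter (-0.23, adjusted p = 0.0478) and with classes from clusters (-0.33, adjusted p = 0.0137), and clusters called Jag2 at -0.53 (adjusted p = 0.00128). Jag1 was at 0.63 and was not called in the 3 libraries labelled transcriptomic (adjusted p = 0.0752).

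Venous-like cells were lower than gCap-like cells in Dll4, Hey1, Jag2 and Notch4 and higher in Dll1. Of 8 genes tested 6 were called, against 36.2% of all 6073. Dll4 differed by -4.14 (SE 0.20), a description without a p-value, since Dll4 was at 5.39 CPM in venous-like cells. Hey1 differed by -2.31 (SE 0.12, adjusted p = 5.8e-18 by edgeR), Jag2 by -1.62 (SE 0.18, adjusted p = 1.1e-09) and Notch4 by -1.06 (SE 0.12, adjusted p = 2.7e-09). Dll1 differed by 0.40 (SE 0.10, adjusted p = 0.00119). The sixth called gene, Notch1 at -0.22 (adjusted p = 0.0364), lost its call in several refits. It was at -0.15 without p21mTert_1 (adjusted p = 0.137), at -0.19 without p21Het_1 (adjusted p = 0.101) and at -0.20 without p21Het_2 (adjusted p = 0.0859) or p21mTert_5 (adjusted p = 0.0775). It was at -0.22 by DESeq2 (adjusted p = 0.0602) and with no library block (adjusted p = 0.0579), at -0.15 with classes from clusters (adjusted p = 0.0742) and at -0.14 in the 8 libraries labelled transcriptomic single cell (adjusted p = 0.226). Hes1 at -0.17 (adjusted p = 0.0981) and Jag1 at 0.20 (adjusted p = 0.269) were not called. Hes1 was called with UMI totals, which shifted the median of all genes by -0.12 (-0.29, adjusted p = 0.00303), and with at least 20 cells per library (-0.20, adjusted p = 0.0339), and was at 0.10 with clusters (adjusted p = 0.342). Jag1 was called with clusters (0.39, adjusted p = 0.0134).

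Lymphatic-like cells held less Notch4, Hey1, Dll1 and Jag2 and more Notch2 than gCap-like cells. This comparison was added after these levels were seen, so its values describe them and its calls are no independent test. Notch4 differed by -4.86 (SE 0.23), Hey1 by -3.55 (SE 0.24), Dll1 by -2.64 (SE 0.18), Jag2 by -1.66 (SE 0.22) and Notch2 by 2.44 (SE 0.25). Of 9 genes tested 7 were called, against 53.6% of all 5552. The calls of Dll4 at 0.38 (adjusted p = 0.0246) and Hes1 at -0.31 (adjusted p = 0.0447) are weak. Dll4 was not called without p21mTert_2 (0.34, adjusted p = 0.0555), p21mTert_4 (0.25, adjusted p = 0.135) or p21mTert_5 (0.31, adjusted p = 0.0798), and Hes1 lost its call when 1 of 7 libraries was left out (-0.32 to -0.25), namely p21Het_1, p21Het_2, p21mTert_2 to p21mTert_5 or p21mTertCD_2. In the 3 libraries labelled transcriptomic both took the opposite sign (Dll4 -0.27, Hes1 0.27). Both also lost their call, with folds close to these, by DESeq2 (Dll4 0.33, adjusted p = 0.105, and Hes1 -0.31, adjusted p = 0.129) and with no library block (0.37, adjusted p = 0.0504, and -0.30, adjusted p = 0.0669). Calls were also lost by Dll4 with no filter (0.27, adjusted p = 0.114) and by Hes1 with classes from clusters (-0.17, adjusted p = 0.299). Jag1 at 0.22 (adjusted p = 0.345) and Notch1 at 0.04 (adjusted p = 0.751) were not called, and with clusters Jag1 was called at 0.40 (adjusted p = 0.0433).

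**Figure D3:**
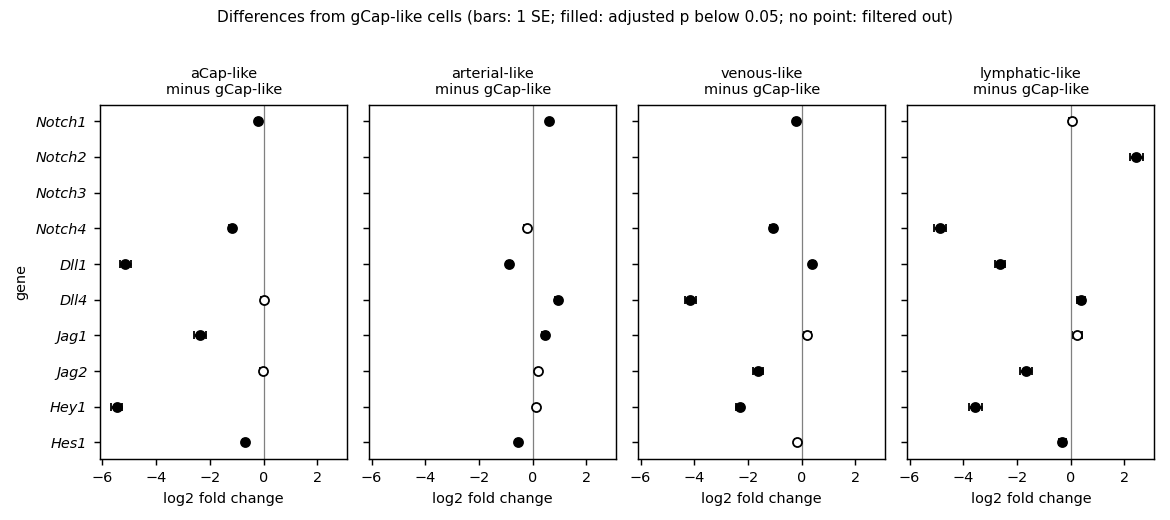
Log2 fold change (x axis) of each gene in aCap-like, arterial-like, venous-like and lymphatic-like cells against gCap-like cells of the same libraries, with bars of 1 SE, filled where the adjusted p was under 0.05. Dll4 lies at -4.14 in venous-like and 0.94 in arterial-like cells, and Hey1 at -5.47 in aCap-like and 0.12 in arterial-like cells.

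In the smooth muscle wall, Notch3 was higher in smooth muscle-like than in alveolar fibroblast-like cells by 5.52 (SE 0.25, n = 11 libraries by edgeR), with 209 against 3.75 CPM. That fold rests on 565 Notch3 UMIs in smooth muscle-like and 33 in alveolar fibroblast-like cells, and since Notch3 passed the filter through the class where it is high, no p-value is given. Notch1 was lower by -1.55 (SE 0.25, adjusted p = 1.0e-05) and Notch2 by -0.76 (SE 0.18, adjusted p = 7.2e-04), while Hes1 at -0.11 (adjusted p = 0.599) was not called. These were 3 of 4 genes tested, against 62.1% of all 4573, in a comparison added because pericyte-like cells were too few. With classes from clusters 2 genes were tested, Notch1 and Notch2 did not pass the filter, and Notch3 was at 8.58. Notch2 was at -0.56 and not called in the 3 libraries labelled transcriptomic (adjusted p = 0.357).

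In the alveolar epithelium, AT1-like cells (284 cells, the flat gas-exchange type) were lower than AT2-like cells (2796 cells, the surfactant-making type) in Jag1 and Notch1. Jag1 held 5.80 ± 6.68 CPM in AT1-like (n = 10) and 29.0 ± 7.80 in AT2-like cells (n = 11; lowest 14.0, median 31.8, highest 38.9). The edgeR difference was -2.82 (SE 0.38). Jag1 was found in only 3.72% ± 4.17 of AT1-like cells (SD, n = 10 libraries). The fold is thus a description, and no p-value is given. Notch1 differed by -1.64 (SE 0.33), with 12.2 ± 16.9 against 35.5 ± 5.95 CPM. Without p21mTertCD_1, which held 7 UMIs in 20 cells, the AT1-like mean was 8.69 ± 13.6 CPM. Notch1 was found in only 3.46% ± 3.7 of AT1-like cells, so its fold is a description as well, without a p-value. Hes1 at -0.22 (adjusted p = 0.271) and Notch2 at 0.06 (adjusted p = 0.807) were not called. The 2 called were among 4 genes tested, and 55.7% of all 8359 genes were called. Scaling by UMI totals instead of TMM, edgeR's default factors, shifted the median of all genes by 0.43 on the log2 scale in this comparison, and Hes1 then stood at 0.20 (adjusted p = 0.303), while Notch2 was called at 0.49 (adjusted p = 0.0248). Hes1 was called with no filter (-0.46, adjusted p = 0.00273) and without p21mTertCD_1 (-0.44, adjusted p = 0.00719).

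In the airway, ciliated-like cells (1341 cells) carried more Jag1, Jag2 and Hey1 and less Notch2 than club-like cells (201 cells, the secretory type). Jag1 was at 151 ± 21.6 against 19.1 ± 14.4 CPM and differed by 1.99 (SE 0.27, adjusted p = 1.55e-08 by edgeR). Jag2 was at 76.1 ± 11.8 against 9.52 ± 10.9 CPM and differed by 2.08 (SE 0.36, adjusted p = 2.7e-06). Notch2 differed by -1.47 (SE 0.26, adjusted p = 3.9e-06 by edgeR), and Hey1 by 1.35 (SE 0.55, adjusted p = 0.0373). Since Hey1 was found in only 2.49% ± 4.04 of club-like cells, its p-value is a description. Hes1 at 0.21 (adjusted p = 0.364) and Notch1 at 0.14 (adjusted p = 0.703) were not called. These were 4 of 6 genes tested, against 48.6% of all 6652.

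The fold changes in the airway depend on scaling. UMI totals in place of TMM factors shifted the median of all genes by 1.20 on the log2 scale. With them Notch2 was at -0.28 and no longer called (adjusted p = 0.38), whereas Hes1 at 1.41 (adjusted p = 2.2e-08) and Notch1 at 1.35 (adjusted p = 1.8e-04) were called. Hes1 was also called with no filter (0.52, adjusted p = 0.014). Hey1 lost its call when 1 of 6 libraries was left out (1.11 to 1.25), which were WT, p21Het_2 and p21mTert_2 to p21mTert_5. In the 3 libraries labelled transcriptomic, Hey1 at 0.30 (adjusted p = 0.849) and Jag2 at 1.10 (adjusted p = 0.141) were not called.

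Among immune cells, non-classical monocyte-like cells (2572 cells, the patrolling type) differed from classical ones (2461 cells) in every gene tested. Hes1 was at 183 ± 36.9 CPM (lowest 132, median 181, highest 271) against 23.7 ± 8.22 (12.9, 23.0 and 43.1), with no overlap. The difference was 2.96 (SE 0.09, adjusted p = 8.9e-17 by edgeR, n = 11). Jag1 was higher by 2.50 (SE 0.24), at 13.6 ± 3.70 against 2.18 ± 1.27 CPM. Its p-value is left out because Jag1 was near 0 in classical monocyte-like cells. Notch2 was higher by 0.62 (SE 0.06, adjusted p = 7.5e-09 by edgeR). Notch1 was lower by -1.10 (SE 0.12, adjusted p = 1.1e-07), at 27.97 ± 8.91 against 56.0 ± 7.21 CPM. These were 4 of 4 tested, where 65.8% of all 8435 genes were called.

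**Figure D4:**
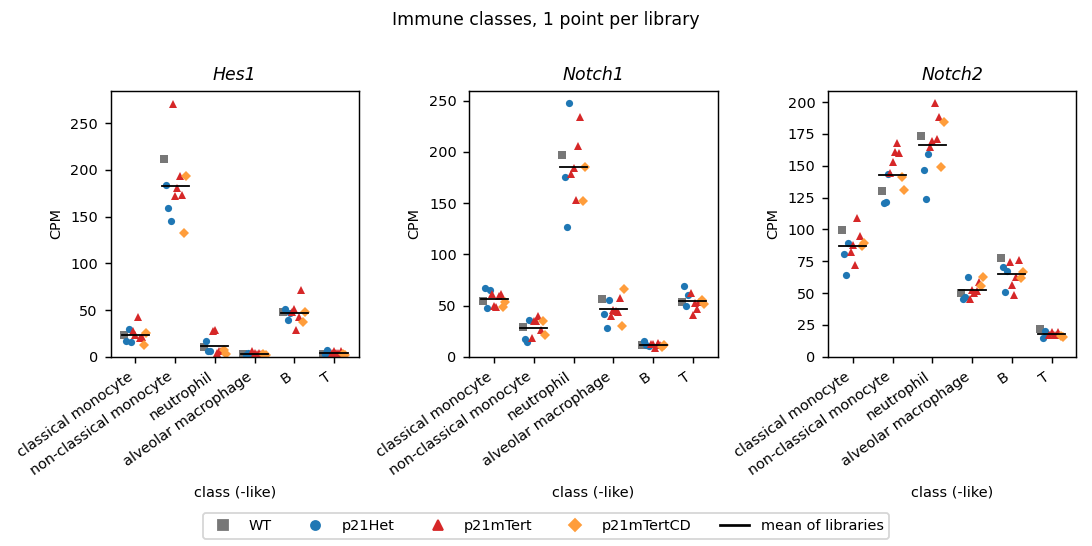
Level (CPM, linear axis) of Hes1, Notch1 and Notch2 in 6 immune classes, 1 point per library coloured by genotype, with a line at the mean. Hes1 separates non-classical from classical monocyte-like cells in every library (132 to 271 against 12.9 to 43.1 CPM), and Notch1 is highest in neutrophil-like cells (185.5 CPM).

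Other genes of the pathway were read from a list of 43 with 6 roles. Those named are the called genes with the largest changes among genes with at least 10 CPM in the higher class. In aCap-like against gCap-like cells 27 passed the filter, 6 were higher and 8 lower (median -0.11, all genes -0.01, 55.2% of them called). These were Eogt, which adds a sugar to Notch (-4.65), Nrarp, a target and feedback inhibitor (-2.38), Mfng, a Fringe glycosyltransferase that alters the receptor's choice of ligand (1.67), and Psen2, a γ-secretase subunit (-1.52). In arterial-like cells 7 were higher and 3 lower of 27 (median 0.01, all genes -0.01, 33.5% of them called). Psen2 was at 231 ± 85.1 against 36.1 ± 6.26 CPM in gCap-like cells (2.70, SE 0.12, adjusted p = 3.1e-22) and Nrarp at 128 ± 43.6 against 58.5 ± 22.9 CPM (1.15, SE 0.11, adjusted p = 3.8e-11). Lfng (-0.85), another Fringe, and Numb (-0.72), an inhibitor of Notch, were lower.

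In venous-like cells 3 of 27 listed genes were higher and 5 lower (median -0.06, all genes -0.02, 36.2% of them called), led by Psen2 (1.07), Numb (-0.79), the processing protease Furin (-0.75) and Adam10 (0.66), which cuts the receptor outside the membrane. In lymphatic-like cells 7 of 26 were higher and 8 lower (median 0.00, all genes -0.01, 53.6% of them called). Dtx1, a ubiquitin ligase of the Deltex family, was at 125 ± 62.2 against 0.293 ± 0.548 CPM in gCap-like cells (7.69, SE 0.30). Since it was near 0 in gCap-like cells and this comparison was added after the levels were seen, its p-value is left out. Mfng (-4.32), Eogt (-3.06) and the γ-secretase subunit Aph1b (2.52) followed.

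Outside the endothelium, 14 of 30 listed genes were higher and 10 lower in non-classical monocyte-like cells (median 0.19, all genes -0.01, 65.8% of them called). Nrarp was at 22.3 ± 7.0 against 1.31 ± 1.32 CPM (4.02, SE 0.25), and its p-value is left out because it was near 0 in classical monocyte-like cells. Pofut1, which adds fucose to Notch (1.29), Rbpj (-0.83) and Lfng (0.80) were also called. Smooth muscle-like cells had 3 of 19 higher and 10 lower (median -0.39, all genes -0.04, 62.1% of them called), with Heyl, a target related to Hey1, at 136 ± 63.5 against 57.1 ± 14.2 CPM (1.20) and with Adam17 (-1.82), Ncstn (-1.53) and the coactivator Maml3 (-1.47) lower. AT1-like cells had 5 of 25 higher and 7 lower (median 0.00, all genes -0.05, 55.7% of them called), led by Maml3 (-4.53), Numb (2.01), Adam10 (1.47) and Dtx2 (-1.29). Ciliated-like cells had 6 of 24 higher and 2 lower (median 0.00, all genes 0.19, 48.6% of them called), led by Aph1b (2.80), Dtx3 (2.21), Lfng (1.77) and Dtx2 (1.25).

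The pattern of each gene over classes was set beside those of 11737 other genes by Pearson's r of log2(mean CPM + 1) over 22 classes. This is a description, since the classes share libraries and many genes mark the same cells. Notch1 was most like Arap3 (r = 0.888), Tal1 and Zc3h3. Notch2 was most like Bcl6 (0.809), Aldh16a1 and Pfkfb4. Notch3 was close to Ngb (0.951) and Pcdh11x, both highest in smooth muscle-like cells. For Notch4 the closest genes were Zfp366 (0.966), Gm26878 and Dnah2os. For Dll1 they were Edn1, which encodes endothelin (0.942), Grrp1 and Tmem2, and for Dll4 Bcl6b (0.939), Wscd1 and Cldn5, a tight-junction gene that is also one of the lineage markers. Jag1 was closest to Megf6 (0.851), Tmem63a and Ctnnb1, and Jag2 to Mansc1 (0.899), Rassf9 and Ccdc85c. Hey1 was closest to Tmem44 (0.933), Acer2 and Disp2, and Hes1 to Trpm4 (0.822), Eva1c and Nbea. Among the 10 genes themselves the highest value was that of Dll1 with Hey1 (0.844) and the lowest that of Notch2 with Notch4 (-0.548).

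The genotype comparison asked whether the Notch genes differed between p21Het, p21mTert and p21mTertCD lungs. UMI sums of 11 gated populations were tested by edgeR over the 10 libraries of these groups. They were all cells, the endothelial, epithelial, mesenchymal and immune lineages, and single classes. The single classes were gCap-like, aCap-like, arterial-like, AT2-like, alveolar fibroblast-like and adventitial fibroblast-like cells. None of the 219 tests of the 10 genes was called, and 22 (10.0%) had an unadjusted p under 0.05, against 6.33% of the tests of all genes. By comparison these were 8 of 73 tests (all genes 6.19%) for p21mTert against p21Het, 11 of 73 (7.93%) for p21mTert against p21mTertCD and 3 of 73 (4.85%) for p21mTertCD against p21Het. Among all genes 0.0382% of 112643 tests were called for p21mTert minus p21Het, 0.0355% for p21mTert minus p21mTertCD and 0.0861% for p21mTertCD minus p21Het. DESeq2 called 1 test of the 10 genes, that of Notch4 in all cells for p21mTert minus p21mTertCD (0.88, adjusted p = 0.0201). Over all genes it also called many more tests than edgeR in that comparison, as listed at the end, so this call is a description. In simulated data with 2-fold changes, edgeR recovered 56.5% of changed genes in endothelial cells for p21mTert minus p21Het, so that changes of that size can be missed. Only genes above a minimum count were changed there, with the same spread set for all genes. Recovery between genotypes in the smaller single classes was not simulated. The 3 genotype comparisons share libraries with each other, and the larger populations contain the smaller ones. The 219 tests are therefore not independent, and 10.0% against 6.33% is a description.

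Each gene was then read in the single class, among those tested, where it was highest, with lineages and all cells set aside. Neutrophil-like (Notch2), smooth muscle-like (Notch3), ciliated-like (Jag1 and Hes1) and venous-like cells (Dll1) had no genotype test. Among classes with a mean, these were the ones where the genes in brackets were highest. The difference of p21mTert minus p21Het ranged from -0.34 (SE 0.22, Hey1 in arterial-like cells) to 0.24 (SE 0.15, Notch4 in gCap-like cells). The others were -0.03 (SE 0.15) for Notch1, -0.20 (SE 0.23) for Dll4, -0.17 (SE 0.23) for Jag1 and 0.15 (SE 0.21) for Jag2 in arterial-like cells. They were -0.05 (SE 0.20) for Dll1 and 0.23 (SE 0.18) for Hes1 in gCap-like cells and 0.03 (SE 0.28) for Notch2 in adventitial fibroblast-like cells. Adjusted p-values by edgeR were 0.899 to 1.00, and Notch3 did not pass the filter in adventitial fibroblast-like cells. Among arterial-like cells with at most 1 gCap-like marker, Hey1 was at -0.61 (adjusted p = 0.818), Dll4 at -0.34 (adjusted p = 0.926), Jag1 at -0.03 (adjusted p = 1.00) and Notch1 at 0.17 (adjusted p = 0.959).

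**Figure D5:**
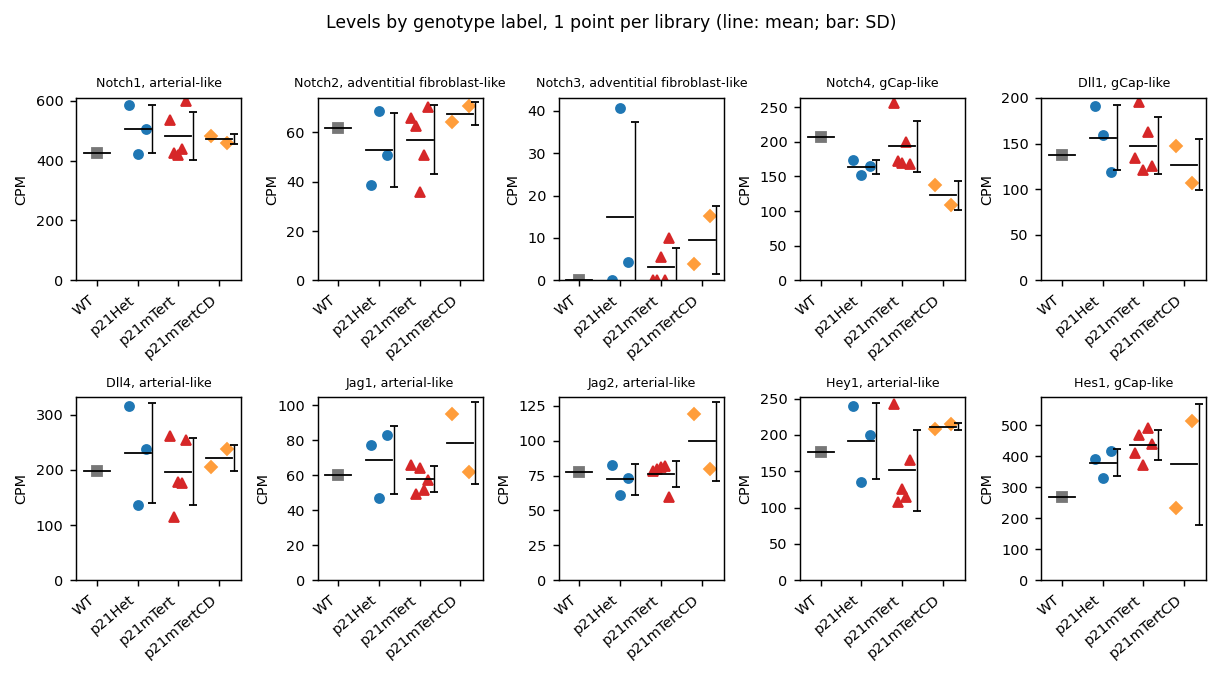
Level (CPM, y axis) of each gene in the single class, among those compared by genotype, where it is highest, with lineages and all cells set aside. Each point is 1 library by genotype (x axis: WT, p21Het, p21mTert, p21mTertCD). A line marks the mean, and a bar of 1 SD is shown where a group has more than 1 library, drawn down to 0 at most. Notch3 did not pass the count filter in its class. Groups overlap for most genes. For Notch4 in gCap-like cells the 2 p21mTertCD libraries (108 and 138 CPM) lie below the other 9, and how often other genes do so was not counted.

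Notch4 gave the lowest unadjusted p-values within a class. In gCap-like cells it was at 152, 166 and 173 CPM in p21Het, at 168, 169.9, 173, 199 and 256 in p21mTert, at 108 and 138 in p21mTertCD, and at 207 in WT (95 UMIs, exact Poisson 95% interval 168 to 254, counting error only). The p21mTertCD libraries lay below all others. The edgeR difference of p21mTert minus p21mTertCD was 0.59 (unadjusted p = 0.00491, adjusted p = 0.423). In arterial-like cells the order was another: 87.6, 110 and 117 CPM in p21Het, 126, 135, 143, 167 and 174 in p21mTert, while p21mTertCD held 141 and 205 and WT 159. All p21mTert and p21mTertCD libraries were above all p21Het libraries there. How often other genes separate groups in these ways was not counted, and Notch4 is shown here for its p-values. The separations are therefore descriptions. The differences from p21Het were 0.49 for p21mTert (unadjusted p = 0.0189, adjusted p = 0.763) and 0.78 for p21mTertCD (unadjusted p = 0.00367, adjusted p = 0.801). Among the 266 arterial-like cells with at most 1 gCap-like marker they were 0.21 (adjusted p = 0.96) and 0.63 (adjusted p = 0.866).

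Summed over all kept cells, Notch4 was at 5.40, 8.66 and 9.55 CPM in p21Het, 9.71, 11.3, 11.9, 12.6 and 15.6 in p21mTert, 5.18 and 7.24 in p21mTertCD, and 7.42 in WT. Every p21mTert library was thus above every other, and how often other genes separate this way was not counted. The differences were 0.59 from p21Het (unadjusted p = 0.0181, adjusted p = 0.672 by edgeR) and 0.91 from p21mTertCD (unadjusted p = 0.00428, adjusted p = 0.215). Endothelial cells made up 11.5% ± 2.96 (n = 5) of kept barcodes in p21mTert, 8.91% ± 3.98 (n = 3) in p21Het, 7.02% ± 2.73 (n = 2) in p21mTertCD and 6.97% in WT. In sums over all cells, fewer cells of a type and less RNA per cell cannot be told apart. For p21mTert minus p21mTertCD in all cells, Dll1 was at 1.11 (unadjusted p = 0.0192), Jag2 at 0.80 (0.021), Hes1 at 0.71 (0.0138) and Jag1 at 0.38 (0.0311), none called.

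Hes1 in all cells was at 74.1, 92.7 and 103 CPM in p21Het and 96.7, 133, 147, 150.3 and 161 in p21mTert, a difference of 0.58 (unadjusted p = 0.0177, adjusted p = 0.672 by edgeR). For p21mTert minus p21Het it was at 0.44 in AT2-like, aCap-like and all epithelial cells (unadjusted p = 0.0191, 0.0208 and 0.0212). The aCap-like libraries held 179, 224 and 232 CPM in p21Het, 231, 242, 295.5, 321 and 321 in p21mTert, while those of p21mTertCD held 212 and 235, so p21Het and p21mTert overlapped by 1 library. In AT2-like cells p21mTert minus p21mTertCD was 0.41 (unadjusted p = 0.0489), and in epithelial cells p21mTertCD minus p21Het was 0.45 (unadjusted p = 0.0464).

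In immune cells Hes1 was at 14.1 and 28.6 CPM in p21mTertCD and at 26.2, 33.4, 36.7, 38.9 and 43.8 in p21mTert (0.69, unadjusted p = 0.0219, adjusted p = 0.566 by edgeR). Without p21mTertCD_2 this difference was 1.28, and without p21mTertCD_1 it was 0.27, so the value rests on which of the 2 libraries is used. Each of these fits leaves 1 p21mTertCD library, so no p-value is given for them. The p21mTertCD_1 library held 104 B-like cells against 895 to 2285 in the others, and 2294 T-like cells against 677 to 1427. Hes1 was at 46.7 ± 10.8 CPM in B-like cells and at 4.16 in T-like cells. Within B-like cells Hes1 was at 36.8 and 47.6 CPM in p21mTertCD and at 29.1 to 71.9 in p21mTert. The part of these cell numbers in the immune value was not tested. The sign was opposite in mesenchymal cells (-0.63, unadjusted p = 0.00679 by edgeR) and in the alveolar fibroblast-like cells among them (-0.73, unadjusted p = 0.0164). With 1 library left out, these differences ranged from -0.991 to -0.0854 and from -1.13 to -0.00735. In mesenchymal cells 1 of the 2 p21mTertCD libraries was high, at 207 CPM against 102 in the other and 80.0 to 116 in p21mTert. In alveolar fibroblast-like cells p21mTertCD_2 held 250.8 CPM, against 73.69 to 145.6 in all other libraries.

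The remaining differences with an unadjusted p under 0.05 were small in number. Jag2 in aCap-like cells was at 63.5, 102 and 116 CPM in p21Het and 35.2, 58.9, 60.8, 64.3 and 74.0 in p21mTert, which overlapped (-0.65, unadjusted p = 0.0206, adjusted p = 0.999 by edgeR). With 1 library left out that difference ranged from -0.988 to -0.121, and p21Het_3 held only 12 aCap-like cells. Hey1 in arterial-like cells was at 208 and 215 CPM in p21mTertCD and 108, 114, 126, 165 and 243 in p21mTert (-0.59, unadjusted p = 0.0253, adjusted p = 0.511), a difference of -0.20 among cells with at most 1 gCap-like marker (adjusted p = 0.969). Notch3 in mesenchymal cells was at 66.3, 69.1 and 96.1 CPM in p21Het, 39.0, 39.5, 53.9, 62.3 and 84.0 in p21mTert, while p21mTertCD held 37.2 and 56.3. Its differences from p21Het were -0.51 for p21mTert (unadjusted p = 0.039) and -0.70 for p21mTertCD (unadjusted p = 0.0272). Notch3 was at 209 CPM in smooth muscle-like and 3.75 in alveolar fibroblast-like cells. Smooth muscle-like cells were 21 of 132, 39 of 221 and 21 of 102 mesenchymal cells in p21Het. They were 10 of 83, 43 of 218, 17 of 153, 36 of 320 and 27 of 114 in p21mTert and 23 of 121 and 29 of 249 in p21mTertCD. The part of these cell numbers in the Notch3 values was not tested. In these 3 genes no group stood clear of every other, and for Notch3 both p21mTertCD libraries were below all 3 p21Het libraries but overlapped p21mTert. Of the 43 other pathway genes, 0 of 1044 genotype tests were called by edgeR, with 57 (5.46%) at an unadjusted p under 0.05, against 6.33% of the tests of all genes.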

How the data were processed

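The authors deposited raw UMI counts per gene and barcode for 11 libraries, as whole numbers per the file headers. Cell Ranger and mm10 are named per the submitters' processing notes, and the version is not given here because the sources differ. The deposited counts carry no normalization. Barcodes were kept if their UMI total was 1000 to 30000 and their mitochondrial share no more than 14%, gated by markers (at least 3 of 8 for a lineage, at least 2 for a class, barcodes reaching 3 in more than 1 lineage left out as possible doublets) and summed per library and class, with at least 10 cells. Levels are CPM of these sums. The quasi-likelihood test of edgeR 4.0.16 (R 4.3.3) ran on the sums after filterByExpr with TMM factors, with Benjamini-Hochberg adjustment over all genes and a threshold of 0.05. The fit was over 10 libraries with a term for group, WT being left out with 1 library, or within libraries with the library as a block. Standard errors are the fold change over the square root of F. Both fits were tested on simulated data (56.5% of 2-fold changes recovered over 10898 genes for genotype in endothelial cells, 98.5% over 6231 genes for arterial-like minus gCap-like). Poisson intervals are exact at 95% and cover counting error only. Cells are no replicates, and class means rest on as few as 10 cells in a library.

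The 10 genes are always named. A genotype value is printed in the single tested class where the gene is highest (lineages and all cells set aside), or where its unadjusted p was under 0.05. Up to 4 called pathway genes per comparison with at least 10 CPM are named. The 3 genes most like each in pattern are named, apart from 1 that is not reported here. The genes, the pathway list and the tests were chosen with earlier results of these data known. Alternatives were DESeq2 1.42.0, RLE size factors, UMI totals, no filter, other gates, Leiden clusters (scanpy 1.11.5, leidenalg 0.10.2), Scrublet, blocks and terms, and leaving out libraries. Python 3.11.15, numpy 2.4.6, scipy 1.17.1, pandas 2.3.3, scikit-learn 1.9.0 and matplotlib 3.10.9 were also used.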

Additional observations from a re-analysis of the deposited data

Results flagged for a closer look

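In groups of 5 libraries, 2 of the 30 values tested held a library far from the other 4, and chance flags about 1 in 20 groups. Notch1 in gCap-like cells was at 444.9 CPM in the first p21mTert library (212 UMIs in 188 cells) and at 292 to 330.3 CPM in the other 4, so that the gap was 0.750 of the whole range. This library is the only p21mTert one labelled transcriptomic, and its age label is 20 months. The part of either in the value was not tested. Jag2 in arterial-like cells was at 59.54 CPM in the fifth p21mTert library (26 UMIs in 76 cells) and at 78.0 to 81.7 in the other 4, a gap of 0.831 of the range.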

How the results depend on the processing

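Of 37 class differences called, 28 kept direction and call in all of their refits, and of 856 refits in all 818 did so, 36 lost the call and 2 reversed. The exceptions were Dll4 and Hes1 in lymphatic-like, Hey1, Jag2 and Notch2 in ciliated-like, Jag1 in arterial-like, Notch1 in aCap-like and venous-like and Notch2 in smooth muscle-like cells. Of 14 class differences not called, 22 of 326 refits were called in the same direction and 41 reversed. Left out singly, p21Het_2 brought a call of Jag2 (0.28), and p21mTert_5, p21mTertCD_1 and p21mTertCD_2 a call of Notch4 (-0.26, -0.29 and -0.28) in arterial-like cells, and p21mTertCD_1 a call of Hes1 in AT1-like (-0.44) and venous-like cells (-0.20). Of 31 genotype values, 2 of 687 refits were called and 21 reversed. The cause was not tested in any of these. In the class where each gene was highest, its level moved by less than 1 SD when taken as a mean over cells or over all deposited barcodes. Other classes were not compared in this way. Precision is limited by 2 p21mTertCD libraries and by few UMIs in small classes.

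The number of genes called among the 10 is given here without the share of all genes called in the same fit. Calls over all genes moved as well in several of these fits, as listed below. Among the 10, the number called moved from 2 of 4 tested to 4 in AT1-like and from 4 of 6 tested to 8 in ciliated-like cells. That was with no filter on low counts, which tests more genes. The number called among the 10 moved from 5 to 8 in arterial-like cells with at most 1 gCap-like marker, and from 3 to 1 in smooth muscle-like cells with classes from clusters, where 2 of the 10 passed the filter. In the 3 libraries labelled transcriptomic it was 2 in ciliated-like and 4 in lymphatic-like cells, where AT1-like cells could not be fitted. For p21mTert minus p21mTertCD it was 1 by DESeq2 and 0 to 1 when libraries were left out.

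Reversed values were as follows. With UMI totals, Hes1 in AT1-like cells was at 0.20. With RLE size factors, Dll4 in aCap-like was at -0.0119 and Notch2 in AT1-like cells at -0.068, and with DESeq2 at -0.0229 and -0.0428. With no filter, Notch1 in lymphatic-like was at -0.0675, Notch2 in AT1-like at -0.17 and Notch1 in arterial-like cells (p21mTert minus p21Het) at 0.016. With clusters, Dll4 in aCap-like was at -0.38, Hes1 in smooth muscle-like at 0.57 and in venous-like at 0.10, Hey1 in arterial-like at -0.0904, Jag2 in arterial-like at -0.53, Notch1 in ciliated-like at -0.23, Notch2 in AT1-like at -0.0212 and Notch1 in arterial-like cells between genotypes at 0.0925. With Scrublet, Hes1 and Notch1 in ciliated-like cells were at -0.17 and -0.15, with 3 class markers at -0.0729 and -0.19. With 20 cells, Notch1 in ciliated-like was at -0.11 and Notch2 in AT1-like at -0.0813, and with 4 lineage markers at -0.19 and -0.0262. In arterial-like cells with at most 1 gCap-like marker, Hey1 was at -0.67, Jag2 at -0.61 and Notch1 between genotypes at 0.17. Without Gja4, Gja5 and Efnb2, Hey1 was at -0.28 and Jag2 at -0.26. In the 3 libraries labelled transcriptomic, Dll4 in aCap-like was at -0.0515, Jag2 in aCap-like at 0.11, Hes1 in ciliated-like at -0.31, and in lymphatic-like cells Dll4 at -0.27, Hes1 at 0.27, Jag1 at -0.25 and Notch1 at -0.16. In the 8 others, Notch2 in AT1-like was at -0.0304, and p21mTert minus p21Het was 0.0425 for Dll1 in gCap-like, 0.0043 for Dll4 and 0.0333 for Notch1 in arterial-like and -0.14 for Notch2 in adventitial fibroblast-like cells.

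With a library left out, the ranges of the values that reversed were -0.072 to 0.11 for Dll4 and -0.16 to 0.0436 for Jag2 in aCap-like, -0.00159 to 0.30 for Hes1 and -0.00922 to 0.24 for Notch1 in ciliated-like, -0.0161 to 0.0763 for Notch1 in lymphatic-like and -0.0503 to 0.16 for Notch2 in AT1-like cells. For p21mTert minus p21Het they were -0.23 to 0.10 for Dll1 in gCap-like, -0.45 to 0.0773 for Dll4 and -0.10 to 0.0359 for Notch1 in arterial-like, and -0.11 to 0.30 for Notch2 in adventitial fibroblast-like cells.

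Libraries of different genotype share only a replicate number in the titles: their deviations correlated at -0.18 to 0.03 in endothelial and -0.65 to 0.16 in immune cells. A replicate block over the 8 numbered libraries called 0 tests of the 10 genes and reversed Dll1 in gCap-like (0.23) and Notch2 in adventitial fibroblast-like cells (-0.23), p21mTert minus p21Het. Several replicate numbers occur in a single library, so that fit had almost no libraries left to estimate spread, and its calls decide nothing.

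Over all genes, calls for p21mTert against p21Het, for p21mTert against p21mTertCD and for p21mTertCD against p21Het were 43, 40 and 97, by DESeq2 181, 818 and 421, with no filter 622, 609 and 487, with the replicate block 92, 89 and 80, with a term for the library label 56, 65 and 60, in the 8 libraries labelled transcriptomic single cell 67, 59 and 6, with clusters 29, 20 and 84, and with libraries left out 18 to 75, 14 to 562 and 11 to 386. Scrublet gave 64 for p21mTert minus p21mTertCD. Class calls moved by over 1.5 times with UMI totals (ciliated-like, 3234 to 5623), with no filter (ciliated-like 5692, lymphatic-like 4866, smooth muscle-like 4887), with clusters (smooth muscle-like 1196) and in the 3 libraries (aCap-like 2079, arterial-like 1166, ciliated-like 2147, lymphatic-like 1705, monocyte-like 3489, smooth muscle-like 1586, venous-like 1256). With UMI totals the share of called genes that were higher went from 46.5% to 69.4% in AT1-like, 50.4% to 37.8% in arterial-like, 64.8% to 95.4% in ciliated-like and 51.0% to 33.1% in venous-like cells, where the median gene shifted by -0.12. The planned comparisons of pericyte-like cells were not run, since no library held 10 of them.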
